A study of Mus musculus with 16 samples.

Results

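The transcriptional response of lupus-prone dendritic cells to TLR7 and TLR9 agonists was compared between mice that had been ovariectomized and given estradiol and mice left without surgery, both carrying the receptor form called ERα short. The contrast was the agonist response with surgery minus the agonist response without it, taken on log2(FPKM + 1) for every gene row of the deposited RNA-seq table. It rested on 8 of the 16 libraries and all 24001 gene rows, of which 11346 passed a filter on low values and could be tested. FPKM is fragments per kilobase of transcript, scaled to the mapped fragments of the library.

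The first arm, ERKO OVX, came from NZM2410 mice labelled ERα short. They were ovariectomized at 4 to 8 weeks of age and received a 0.25 mg pellet releasing 17β-estradiol over 90 days. The second arm, KO, came from NZM2410 mice labelled ERα short with no surgery and no pellet. In each arm 2 libraries came from cells given loxoribine and CpG for 24 h and 2 from cells given vehicle. All 4 groups were bone marrow cultures grown with 20 ng/ml of GM-CSF plus IL-4 at 10 ng/ml until day 7, and the study describes the cells as CD11c-high. CpG was given at 1 μg/ml, and loxoribine at what the labels write as 200 μmol/ml, although the unit was not possible to check. The source labels put both treatments of an arm in ERα short, a truncated receptor without its AF-1 function. The genotype tags instead name Esr1(tm4.2Ksk), a null allele, for the vehicle libraries of both arms and Esr1(tm1Ksk) for the agonist libraries. If those tags hold, allele and agonist cannot be told apart within either arm, though the tags differ between treatments in the same way in both arms. Surgery, estradiol and sequencing depth also change together between the arms and cannot be told apart. The labels speak of triplicates, and no source used here states that the 2 libraries of a group were separate mice or cultures, so the p-values cover only the spread between libraries, which may be technical.

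TLR7 binds single-stranded RNA and TLR9 binds unmethylated CpG DNA, both inside endosomes of dendritic cells, and loxoribine is a small guanosine analogue that engages TLR7. Through the adaptor Myd88 both receptors activate NF-kB, which switches on cytokine, chemokine and costimulatory genes together with their own inhibitors. Immune complexes that carry self RNA and DNA reach the same receptors in lupus, and estrogen is known to alter dendritic cell growth and cytokine output through ERα.

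ERKO OVX and KO libraries stood apart in ways not set by the agonists. Estimated depth was 24.6 to 25.8 M fragments in ERKO OVX libraries and 45.1 to 46 M (mega) in KO libraries, and FPKM summed to 612322 to 652417 in ERKO OVX and 481738 to 487852 in KO. The paired ERKO OVX libraries differed by about the sampling noise of their fragments, with a median variance over sampling variance of 1.01 for agonist and 1.34 for vehicle libraries. The same ratio was 9.84 for the KO agonist pair and 4.14 for the KO vehicle pair. The 2 libraries of an ovariectomized group hence entered the fit as their mean, 1 sample, and all standard errors rest on the spread between unoperated libraries. Of 8 dendritic cell markers, 7 reached 1 FPKM in all 4 groups, while Cd209a was at or near 0 in every library.

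Large agonist responses were fewer after ovariectomy and estradiol, in both directions. The response difference passed the test for 2695 genes (23.8%), more negative in ERKO OVX for 1409 and more positive for 1286, at an adjusted p under 0.05 in the limma fit, which is 12.4% and 11.3% of the 11346 genes tested. Past 2-fold there were 56 more negative (0.494%) and 18 more positive (0.159%). The agonist response rose for 2080 genes (18.3%) and fell for 2175 (19.2%) in ERKO OVX, and rose for 2941 (25.9%) and fell for 2873 (25.3%) in KO. The order of these counts was not stable: with all 16 libraries entered as replicates 3029 rose and 2982 fell in ERKO OVX, against 2839 and 2799 in KO, and with every library rescaled to the same sum 3237 rose and 1355 fell in ERKO OVX, against 2672 and 3062 in KO. The count of large responses does not rest on how many passed the test, since 31 genes rose and 1 fell past 2-fold in ERKO OVX whether called or not, against 131 and 64 in KO. Among called genes the response passed 2-fold upward for 31 in ERKO OVX (0.273%) and 130 in KO (1.15%). Downward it passed 2-fold for 1 gene in ERKO OVX (0.00881%) and 63 in KO (0.555%). Of the 130 large KO rises, 116 were smaller in ERKO OVX and 0 were larger, and of the 63 large KO falls, 58 were smaller and 0 were larger. The KO response is a part of the difference, so these last counts only describe it. Limma's test against a 1.5-fold threshold called 49 genes more negative and 6 more positive. The split by direction depended on scaling: 52.3% of called genes were more negative in the FPKM as deposited, 24.1% with every library rescaled to the same sum, and 64.3% with every library scaled to the same median. Between the unoperated arms, KO against WT, 792 genes differed in response (6.98%).

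**Figure D1:**
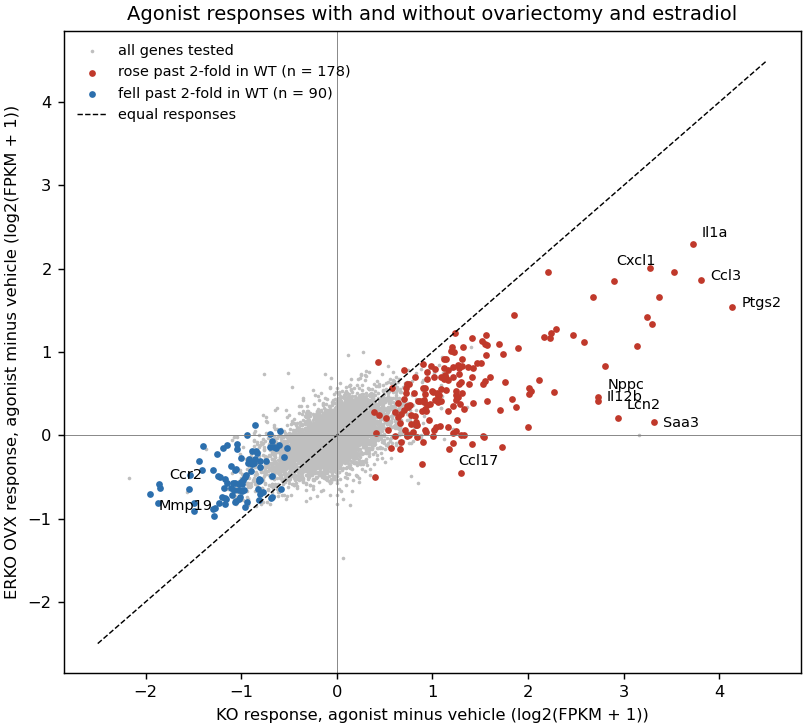
Agonist response in ERKO OVX (vertical axis) against the agonist response in KO (horizontal axis), both as log2(FPKM + 1) differences, with 1 point per gene tested; coloured points are the 178 genes that rose and the 90 that fell past 2-fold in WT, and the dashed line marks equal responses. Red points lie mostly below the dashed line and blue points mostly above it, with Saa3 and Lcn2 near an ERKO OVX response of 0.

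The acute phase protein Saa3 had the most negative response difference. It stood at 5644 and 5627 FPKM in ERKO OVX agonist, 5015 and 5040.4 in ERKO OVX vehicle, 635 and 645 in KO agonist and 63.7 and 63.2 in KO vehicle libraries. Both ERKO OVX groups lay above both KO groups, and the vehicle level of ERKO OVX exceeded the stimulated level of KO. The response was 0.16 ± 0.09 in ERKO OVX (SE, limma adjusted p = 0.162) and 3.31 ± 0.06 in KO, a difference of -3.15 ± 0.10 (limma adjusted p = 9.88e-07). Lcn2, which encodes the iron-siderophore-binding protein lipocalin 2, followed the same order. It had 1261 and 1251 FPKM in ERKO OVX agonist, 1085 and 1090.2 in ERKO OVX vehicle, 119.5 and 126 in KO agonist and 15.8 and 14.6 in KO vehicle libraries, a response difference of -2.73 ± 0.15 (limma adjusted p = 6.75e-05). Ptgs2, the inducible prostaglandin synthase, rose in both arms but by less in ERKO OVX. Its level was 125 and 124 FPKM in ERKO OVX agonist, 42.03 and 41.9 in ERKO OVX vehicle, 71.2 and 60.2 in KO agonist and 2.88 and 2.69 in KO vehicle libraries, a difference of -2.59 ± 0.38 (limma adjusted p = 0.0101). Nppc, which encodes C-type natriuretic peptide, differed in the other way that a response can shrink, through a lower stimulated level, while its vehicle level did not pass the test between arms. It had 1.67 and 1.27 FPKM in ERKO OVX agonist, 0.819 and 0.753 in ERKO OVX vehicle, 13.8 and 12.4 in KO agonist and 1.41 and 0.858 in KO vehicle libraries, a difference of -2.27 ± 0.26 (limma adjusted p = 0.000527).

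Promoter sequence of these 4 genes is given because they are the highest-ranked genes whose promoter window held any of the motifs searched. Windows run from 250 bases before to 50 bases after the annotated start, 5′ to 3′ on the gene's strand, from RefSeq on GRCm38. They are chr7:46715627-46715926 (minus strand) for Saa3, chr2:32387690-32387989 (minus) for Lcn2, chr1:150099781-150100080 (plus) for Ptgs2 and chr1:86670524-86670823 (minus) for Nppc. Capitals mark matches to an NF-kB motif (GGGANNNNCC), an interferon response motif (GAAANNGAAA) or a C/EBP motif (TTGCNNAA), searched on both strands.
Saa3: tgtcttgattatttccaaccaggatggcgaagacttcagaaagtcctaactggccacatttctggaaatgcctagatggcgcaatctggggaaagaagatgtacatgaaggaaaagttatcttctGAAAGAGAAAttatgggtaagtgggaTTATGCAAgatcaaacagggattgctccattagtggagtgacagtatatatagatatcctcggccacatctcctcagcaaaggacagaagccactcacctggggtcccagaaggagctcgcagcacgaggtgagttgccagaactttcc
Lcn2: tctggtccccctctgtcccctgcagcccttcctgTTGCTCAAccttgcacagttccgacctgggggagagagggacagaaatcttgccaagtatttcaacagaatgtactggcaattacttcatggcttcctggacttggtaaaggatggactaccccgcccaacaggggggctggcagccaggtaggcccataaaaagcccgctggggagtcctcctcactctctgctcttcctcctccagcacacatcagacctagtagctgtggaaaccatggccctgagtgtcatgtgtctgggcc
Ptgs2: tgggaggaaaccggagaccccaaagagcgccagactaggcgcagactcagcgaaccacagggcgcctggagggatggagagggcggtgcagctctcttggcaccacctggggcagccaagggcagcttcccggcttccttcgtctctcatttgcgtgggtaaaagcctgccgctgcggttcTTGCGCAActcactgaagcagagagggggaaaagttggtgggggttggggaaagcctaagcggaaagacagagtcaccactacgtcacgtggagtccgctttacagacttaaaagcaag
Nppc: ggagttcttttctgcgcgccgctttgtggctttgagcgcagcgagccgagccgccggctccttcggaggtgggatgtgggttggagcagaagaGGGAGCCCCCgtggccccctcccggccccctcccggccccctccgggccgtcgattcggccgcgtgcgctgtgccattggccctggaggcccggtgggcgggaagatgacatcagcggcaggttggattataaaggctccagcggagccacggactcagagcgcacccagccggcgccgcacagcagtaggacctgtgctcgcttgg
Saa3 held 1 interferon response and 1 C/EBP match, Lcn2 and Ptgs2 held 1 C/EBP match each, and Nppc held 1 NF-kB match. Of the 12 genes with the most negative difference, 10 had a window and 6 had any match. The NF-kB letters occurred in 41.8% of 146 windows of the genes that rose past 2-fold in WT and responded less in ERKO OVX, in 24% of 75 windows of the corresponding falling genes, and in 20.7% of all 32851 windows. Shares for the C/EBP letters were 17.8%, 13.3% and 10.8% in the same sets, and for the interferon response letters 4.79%, 1.33% and 3.44%. Windows were counted rather than genes, and the 146 windows belong to 117 genes. No share was taken for rising genes without a smaller response, so these shares do not bear on the size of the response. A match is a run of letters and was not tied to binding of any factor.

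Cytokines and chemokines made up much of the rest of the ranking. Il12b, the subunit shared by interleukins 12 and 23, was the one cytokine gene among the 12 whose stimulated level was lower after surgery. It had 262 and 261 FPKM in ERKO OVX agonist, 196 and 196 in ERKO OVX vehicle, 555 and 532 in KO agonist and 81.7 and 80.6 in KO vehicle libraries. The 4 groups did not overlap, and ERKO OVX lay inside the range spanned by KO, with a difference of -2.32 ± 0.07 (limma adjusted p = 3.02e-07). Il1b, the secreted pyrogen interleukin 1β, lay higher in ERKO OVX in both treatments. Its levels were 2293 and 2305 FPKM in ERKO OVX agonist, 912 and 908 in ERKO OVX vehicle, 1111 and 1078 in KO agonist and 113 and 108 in KO vehicle libraries, and the difference was -1.96 ± 0.26 (limma adjusted p = 0.00732). The chemokine genes Ccl3 and Ccl4 were likewise higher in ERKO OVX in both treatments. Ccl3 had 1474 and 1488 FPKM in ERKO OVX agonist, 409 and 403 in ERKO OVX vehicle, 845 and 772 in KO agonist and 54.8 and 58.9 in KO vehicle libraries, a difference of -1.94 ± 0.10 (limma adjusted p = 6.41e-06). Ccl4 differed by -1.83 ± 0.19 (limma adjusted p = 0.00145), with 778 and 776 FPKM in ERKO OVX agonist, 288 and 292 in ERKO OVX vehicle, 252 and 234 in KO agonist and 25.3 and 23.9 in KO vehicle libraries.

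Marco, Lox, U90926 and Ptx3 completed that ranking. Marco, a scavenger receptor of macrophages, stood at 265 and 264 FPKM in ERKO OVX agonist, 245 and 247 in ERKO OVX vehicle, 59.3 and 61.4 in KO agonist and 14.2 and 14.5 in KO vehicle libraries. Its ERKO OVX vehicle level was above the KO stimulated one, and the difference was -1.90 ± 0.07 (limma adjusted p = 7.16e-07). Lox, a collagen cross-linking oxidase, had 142 and 142 FPKM in ERKO OVX agonist, 66.9 and 67.5 in ERKO OVX vehicle, 21.03 and 19.8 in KO agonist and 1.55 and 1.30 in KO vehicle libraries, with a difference of -2.08 ± 0.09 (limma adjusted p = 1.09e-06). U90926 was also higher in ERKO OVX in both treatments and differed in response by -1.98 ± 0.25 (limma adjusted p = 0.00209). Ptx3, a soluble pattern recognition protein, had a stimulated level below that of KO, like Nppc, and a slightly higher vehicle level whose call was lost after rescaling each library to the same sum: 2.13 and 2.44 FPKM in ERKO OVX agonist, 1.25 and 1.35 in ERKO OVX vehicle, 8.62 and 7.40 in KO agonist and 0.870 and 0.864 in KO vehicle libraries, a difference of -1.75 ± 0.11 (limma adjusted p = 1.50e-05).

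**Figure D2:**
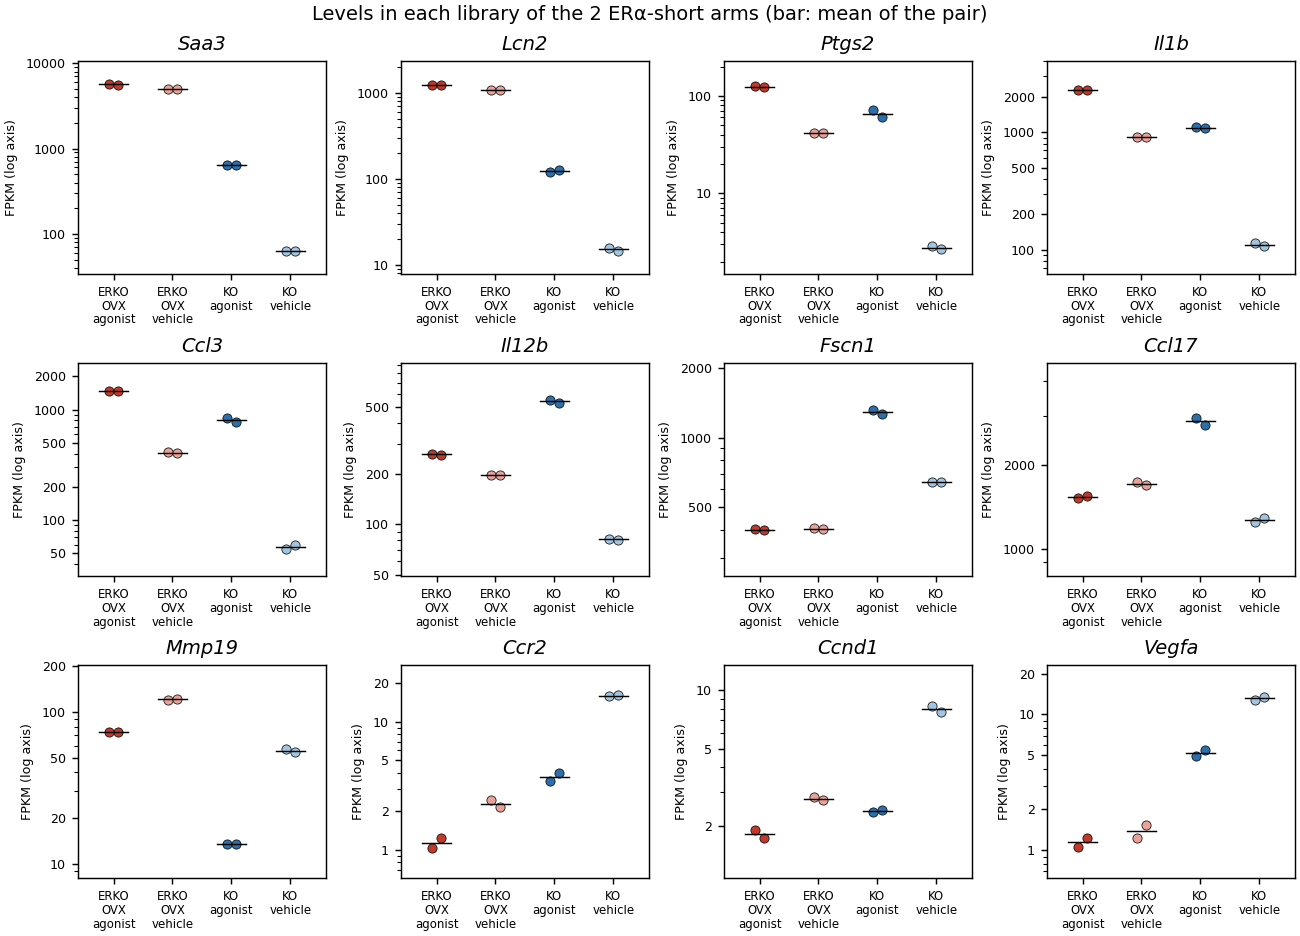
FPKM on log axes in each of the 8 libraries for 12 genes, with ERKO OVX agonist and vehicle libraries left of KO agonist and vehicle libraries and a bar at the mean of each pair. In the upper row and Ccl3 the ERKO OVX vehicle level lies far above the KO vehicle level; Fscn1 and Ccl17 rise with agonists in KO and do not in ERKO OVX; and the lower row shows genes that fell by more in KO.

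The 12 genes with the most positive difference all fell with agonists in KO. In ERKO OVX as deposited they fell by less, did not pass the test or, for Rnaset2a, rose. After rescaling to the same sum, Gadd45g and Sesn3 were also called as rising in ERKO OVX, by 0.33 and 0.31 (limma adjusted p = 0.0473 and 0.0361). The matrix metalloproteinase Mmp19 had 73.8 and 73.6 FPKM in ERKO OVX agonist, 119.9 and 121 in ERKO OVX vehicle, 13.5 and 13.6 in KO agonist and 56.7 and 54.5 in KO vehicle libraries. It was higher in ERKO OVX in both treatments and fell there by less, a difference of 1.26 ± 0.07 (limma adjusted p = 6.11e-06). Ccr2, the receptor that draws monocytes to Ccl2, was lower in ERKO OVX in both treatments: 1.03 and 1.23 FPKM in ERKO OVX agonist, 2.45 and 2.14 in ERKO OVX vehicle, 3.43 and 4.01 in KO agonist and 15.9 and 16.1 in KO vehicle libraries. The difference was 1.22 ± 0.14 (limma adjusted p = 0.000371). Of the 18 genes past 2-fold positive, 16 were lower with vehicle in ERKO OVX, against 39.9% of all genes tested. The vehicle difference is subtracted in the response difference that picked these 18, so this count only describes them.

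Ceacam15 differed by 1.27 ± 0.13, Psca by 1.14 ± 0.12, the guanine deaminase Gda by 1.06 ± 0.12, the neurofilament gene Nefl by 1.04 ± 0.08 and the stress gene Gadd45g by 1.02 ± 0.13. Sesn3, which encodes a stress-induced sestrin, differed by 0.96 ± 0.11. Adjusted p-values of these 6 in the limma fit were 5.01e-05 to 0.000613. Nefl and Psca were below 1 FPKM in all 4 ERKO OVX libraries and passed the filter on low values only through other groups. With 1 added to every value their response in ERKO OVX stays near 0, so the size of their difference mostly restates the fall in KO. Psca had 0.295 and 0.115 FPKM in ERKO OVX agonist, 0.577 and 0.393 in ERKO OVX vehicle, 2.49 and 2.68 in KO agonist and 9.12 and 8.42 in KO vehicle libraries, so it was lower with agonists in both arms. A pseudocount of 0.1 gave a difference of 0.74 for Psca (limma adjusted p = 0.0122) and 1.02 for Nefl (limma adjusted p = 0.000243). Nefl had 0.554 and 0.628 FPKM in ERKO OVX agonist, 0.783 and 0.656 in ERKO OVX vehicle, 5.88 and 6.14 in KO agonist and 14.1 and 14.9 in KO vehicle libraries. Vegfa and Ccnd1 also belong to this ranking and are given with the estrogen-linked genes.

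Responses were called in opposite directions for 254 genes, 160 that rose in KO and fell in ERKO OVX and 94 that did the reverse. Cd70, a costimulatory ligand for T cells, had 2.23 and 3.42 FPKM in ERKO OVX agonist, 4.18 and 4.13 in ERKO OVX vehicle, 7.74 and 7.32 in KO agonist and 2.61 and 2.33 in KO vehicle libraries, a difference of -1.75 ± 0.09 (limma adjusted p = 3.67e-06). Its order of treatments turned round between the arms, although the paired ERKO OVX agonist libraries were far apart for this gene. Rnaset2a, an acidic ribonuclease gene, turned round the other way with 9.05 and 10.3 FPKM in ERKO OVX agonist, 5.79 and 4.94 in ERKO OVX vehicle, 11.04 and 10.6 in KO agonist and 16.6 and 14.98 in KO vehicle libraries. Its difference was 1.26 ± 0.16 (limma adjusted p = 0.00108), and the near-identical copy Rnaset2b makes its level uncertain. Ccl17, which attracts Ccr4-bearing T cells, was abundant throughout: 1523 and 1552 FPKM in ERKO OVX agonist, 1742 and 1696 in ERKO OVX vehicle, 2963 and 2777 in KO agonist and 1255 and 1291 in KO vehicle libraries. The rise of Ccl17 in KO was 1.17 and its change in ERKO OVX -0.16, a difference of -1.33 ± 0.06 (limma adjusted p = 1.09e-06). Rnase6 differed by -1.42 ± 0.14, Igsf9 by -0.84 ± 0.11 and Tnfsf4, which encodes OX40 ligand, by -0.83 ± 0.06, with limma adjusted p-values of 0.000192, 0.000659 and 2.50e-05. With libraries rescaled to the same sum, the falls of Ccl17, Igsf9 and Tnfsf4 in ERKO OVX no longer passed the test, while their response differences did.

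Genes chosen from the WT libraries alone, which do not enter the response difference, also responded less in ERKO OVX. WT cells shared the unoperated state with KO, and 6.98% of genes differed in response between WT and KO. The choice thus favours genes with large responses in unoperated cells. A smaller response in a less similar arm is in part built in, so these counts describe the genes and are not independent support. No set was chosen from an ovariectomized arm. In WT cells, which carry the intact receptor and had no surgery, 3497 genes rose (30.8%) and 3067 fell (27.0%); 178 rose past 2-fold (1.57%) and 90 fell past 2-fold (0.793%). Among the 178, the response difference between ERKO OVX and KO was more negative for 151 (84.8%, against 12.4% of all genes tested) and more positive for 1. Their median response was 0.50 in ERKO OVX and 1.16 in KO, and the median difference was -0.64, against 0.01 over all genes tested. They still rose in ERKO OVX for 133 members and fell for 5, and rose in KO for 177, all but Ccl22, which is listed at 0 in both KO agonist libraries and was not tested there. Among the 90 falling genes, 75 had a more positive difference (83.3%, against 11.3% of all genes tested) and 0 a more negative one, with a median response of -0.53 in ERKO OVX and -1.0003 in KO. A pseudocount of 0.1 FPKM in place of 1 enlarged the chosen set of falling genes to 250 and lowered that share to 53.2%. In Ex3a OVX, the ovariectomized arm labelled null, the 178 rising genes had a median response of 0.42 and the 90 falling genes -0.52.

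The vehicle level of the WT-chosen genes was mostly shifted in the direction of their agonist response. This comparison shares its vehicle libraries with the response difference, which subtracts the vehicle difference, so values are set side by side, no relation between them was tested, and the vehicle counts of genes picked by a smaller response only describe those genes. Over all genes, ERKO OVX vehicle libraries were higher than KO vehicle libraries for 4642 genes (40.9% of 11347) and lower for 4533 (39.9%). Of all 178 rising genes 132 were higher with vehicle in ERKO OVX (74.2%) and 31 lower (17.4%). Of the 151 rising genes with a smaller response, 115 were higher with vehicle in ERKO OVX, 26 were lower and 10 were not called. After agonists, 82 of them were higher in ERKO OVX than in KO (40.1% of all genes tested), 58 were lower (38.6% of all) and 11 were not called. The 151 thus divided into 82 that were higher in both treatments, 22 that were higher with vehicle and lower with agonists, 11 that were higher with vehicle and not called with agonists, 26 that were lower in both and 10 that were lower with agonists only. Saa3, Lcn2, Il1b, Ccl3, Lox and Marco belong to the first of these, and Il12b and Ptx3 to the second. Of the 75 falling genes with a smaller response, 54 were lower with vehicle in ERKO OVX, 13 were higher and 8 were not called. Over all 178 rising genes the median vehicle difference was 1.00 as deposited and 0.71 with libraries rescaled to the same sum, while the median over all genes moved from 0.01 to -0.36. The median of the rising genes lay above that of all genes under both scalings, and their median difference after agonists was 0.40 as deposited and 0.14 after rescaling.

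**Figure D3:**
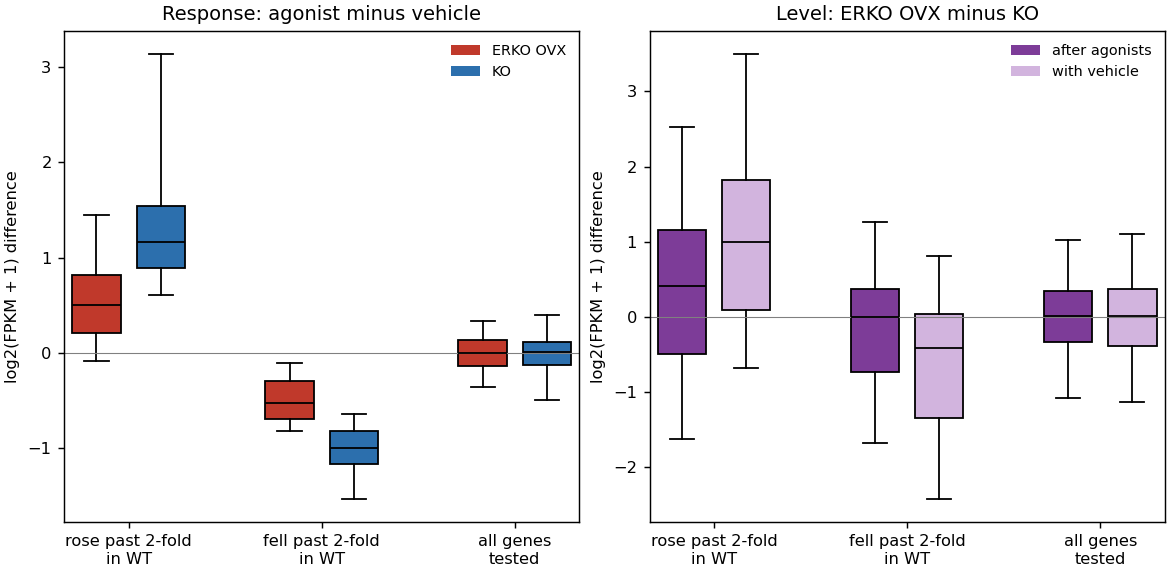
Left, agonist response on log2(FPKM + 1) in ERKO OVX and KO; right, ERKO OVX minus KO after agonists and with vehicle; each for the 178 genes that rose and the 90 that fell past 2-fold in WT and for all genes tested, as boxes of the quartiles with the median and whiskers at the 5th and 95th percentiles. Rising genes had a median response of 0.50 in ERKO OVX and 1.16 in KO, and a median vehicle difference of 1.00.

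Genes called in both the KO response and the difference were counted in the same way. They were picked by a difference that contains the vehicle difference with its sign turned, so a shifted vehicle level is in part built into these counts, which add no support to those of the WT-chosen genes. A smaller rise was called for 901 genes, of which 599 were higher with vehicle in ERKO OVX and 205 lower. A smaller fall was called for 919 genes, of which 588 were lower with vehicle and 213 higher. Larger responses were fewer, with 73 larger rises and 81 larger falls, and 54 of the 73 began from a lower vehicle level in ERKO OVX. Leaving out 1 library moved the 154 larger responses to between 73 and 177, with 88 without KO agonist replicate 2, 79 without KO vehicle replicate 1 and 73 without KO vehicle replicate 2. Rescaling to the same sum gave 573 smaller rises and 1471 smaller falls. Both ERKO OVX vehicle libraries lay above both KO agonist libraries for 69 of the 178 genes that rise in WT (38.8%, against 46.1% of all genes tested), so most of these genes did not reach the KO stimulated level before stimulation.

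Among gene lists drawn up by function, those of inflammation had many members with a smaller response. Shares over all genes tested are the background for each list: 12.4% were more negative and 11.3% more positive as deposited, and 6.89% and 21.7% with libraries rescaled to the same sum. With vehicle 40.9% of all genes were higher in ERKO OVX and 39.9% lower as deposited, and 18.9% and 64.6% after rescaling. Of 23 inflammatory cytokine genes tested, 13 were more negative (56.5%) and 3 more positive (13.0%) in ERKO OVX, and 12 and 3 after rescaling, with a median difference of -0.39 as deposited against 0.01 over all genes. With agonists 13 rose and 2 fell in ERKO OVX, and 19 rose and 3 fell in KO, while with vehicle 17 were higher in ERKO OVX (73.9%) and 2 lower (8.70%). Il23a, the subunit particular to interleukin 23, had 3.92 and 4.27 FPKM in ERKO OVX agonist, 4.21 and 5.07 in ERKO OVX vehicle, 5.69 and 4.60 in KO agonist and 0.752 and 0.961 in KO vehicle libraries, a difference of -1.87 ± 0.16 (limma adjusted p = 6.75e-05). The 2 ERKO OVX groups overlapped for Il23a, while the KO groups did not. Tnf, the proinflammatory tumour necrosis factor, had 307 and 307 FPKM in ERKO OVX agonist, 97.6 and 95.8 in ERKO OVX vehicle, 175 and 153 in KO agonist and 15.4 and 14.6 in KO vehicle libraries, a difference of -1.71 ± 0.36 (limma adjusted p = 0.0337). That call was lost when any 1 KO library or either WT agonist library was left out (limma adjusted p = 0.0743 to 0.0950) and with a replicate block (0.0635).

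Of 20 chemokine genes in the table, 10 were more negative and 2 more positive, and 10 and 3 after rescaling, with a median difference of -0.40 as deposited. They rose for 9 and fell for 3 in ERKO OVX and rose for 12 and fell for 2 in KO, and with vehicle 15 were higher in ERKO OVX and 3 lower. Cxcl1, a neutrophil attractant, reached nearly the same level with agonists in both arms: 357 and 361 FPKM in ERKO OVX agonist, 94.99 and 88.6 in ERKO OVX vehicle, 359 and 319 in KO agonist and 27.7 and 29.1 in KO vehicle libraries. The stimulated groups overlapped, and the difference of -1.57 ± 0.28 (limma adjusted p = 0.0182) came with the higher ERKO OVX vehicle level. Its adjusted p was 0.0501 to 0.0621 in limma without KO agonist replicate 1, either KO vehicle library or either WT agonist library. Cxcl5, a related attractant, had 13.7 and 15.1 FPKM in ERKO OVX agonist, 8.60 and 8.78 in ERKO OVX vehicle, 23.95 and 26.98 in KO agonist and 5.04 and 5.15 in KO vehicle libraries, a difference of -1.45 ± 0.08 (limma adjusted p = 6.41e-06).

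Immune effector enzymes and secreted proteins had a larger median vehicle difference than the cytokine and chemokine lists. Of 19 tested, 12 were more negative and 2 more positive, and 10 and 2 after rescaling, and with vehicle 14 were higher in ERKO OVX and 4 lower, with a median vehicle difference of 1.21. In 14 of the 19 both ERKO OVX vehicle libraries lay above both KO agonist libraries (73.7%, against 46.1% of all genes). Nos2, the inducible nitric oxide synthase, had 379 and 380.1 FPKM in ERKO OVX agonist, 265 and 259 in ERKO OVX vehicle, 170.0 and 162 in KO agonist and 40.4 and 39.6 in KO vehicle libraries. It was higher in ERKO OVX in both treatments, with a difference of -1.49 ± 0.07 (limma adjusted p = 1.92e-06). Saa3, Lcn2 and Ptgs2, described above, are the other leading members.

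Dendritic cell maturation and costimulation genes were mostly lower in ERKO OVX. Of 19 tested, 13 were more negative and 0 more positive, with a median difference of -0.40, and rescaling to the same sum gave 11 and 3. With vehicle 3 were higher in ERKO OVX and 13 lower, with agonists 0 were higher and 16 lower, and in 0 of 19 did the ERKO OVX vehicle libraries lie above the KO agonist libraries. The agonists raised 7 and lowered 4 in ERKO OVX, and raised 16 and lowered 2 in KO. Fscn1, the actin bundler of mature dendritic cells, had 401 and 399 FPKM in ERKO OVX agonist, 407 and 401 in ERKO OVX vehicle, 1324 and 1264 in KO agonist and 642 and 646 in KO vehicle libraries. The treatments overlapped in ERKO OVX and stood 1.01 apart on the log2 scale in KO, a difference of -1.02 ± 0.05 (limma adjusted p = 2.92e-06). Cd80, a ligand of CD28, did not pass the test in ERKO OVX as deposited either, with 44.4 and 41.1 FPKM in ERKO OVX agonist, 40.9 and 41.1 in ERKO OVX vehicle, 142 and 138 in KO agonist and 73.9 and 73.1 in KO vehicle libraries, a difference of -0.86 ± 0.05 (limma adjusted p = 5.82e-06). After rescaling to the same sum, Cd80 was called as rising in ERKO OVX, by 0.14 (limma adjusted p = 0.026). Cd40, the receptor through which T cells license dendritic cells, was 1 of the 3 members higher with vehicle, at 241 and 243 FPKM in ERKO OVX agonist, 148 and 149 in ERKO OVX vehicle, 252 and 234 in KO agonist and 78.4 and 79.7 in KO vehicle libraries. Its stimulated levels overlapped between the arms as deposited and were lower in ERKO OVX after rescaling, and its difference was -0.90 ± 0.07 (limma adjusted p = 4.51e-05).

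NF-kB subunits and feedback inhibitors still responded in ERKO OVX, where 19 of 20 rose and 0 fell, against 17 that rose and 1 that fell in KO. The response difference was more negative for 10 and more positive for 1, with a median of -0.14, but the direction was not stable to scaling, with 7 in each direction after rescaling to the same sum. Socs3, an inhibitor of cytokine receptor signalling, had 97.6 and 96.7 FPKM in ERKO OVX agonist, 44.03 and 44.1 in ERKO OVX vehicle, 67.8 and 69.4 in KO agonist and 10.5 and 10.8 in KO vehicle libraries, a difference of -1.46 ± 0.06 (limma adjusted p = 9.44e-07). Nfkbiz, a nuclear IkB protein that aids late NF-kB targets, had 33.7 and 33.5 FPKM in ERKO OVX agonist, 14.2 and 13.9 in ERKO OVX vehicle, 47.1 and 44.05 in KO agonist and 7.44 and 7.36 in KO vehicle libraries, a difference of -1.27 ± 0.06 (limma adjusted p = 2.92e-06). Both were higher with vehicle in ERKO OVX, and Socs3 was also higher with agonists, while Nfkbiz was lower. The list as a whole went the other way: with vehicle 6 of 20 were higher in ERKO OVX and 12 lower. Rescaling gave 3 and 16, and after agonists 4 were higher and 15 lower as deposited. The RNA-degrading inhibitor Zc3h12a and the deubiquitinase Tnfaip3, known as A20, differed by -0.39 ± 0.05 and -0.35 ± 0.06, with vehicle levels slightly higher in ERKO OVX as deposited and lower after rescaling.

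The receptors and adaptors upstream were called at about the background share. Of 20 genes of the endosomal TLR pathway, 3 were more negative and 3 more positive, which is 15% each, against 12.4% and 11.3% of all genes. After rescaling to the same sum 1 was more negative and 6 more positive, where 6.89% and 21.7% of all genes were. With vehicle 10 were higher in ERKO OVX and 8 lower as deposited, and 7 and 13 after rescaling. Tlr7, named here because it receives loxoribine, had 18.3 and 18.3 FPKM in ERKO OVX agonist, 24.3 and 23.2 in ERKO OVX vehicle, 12.03 and 12.9 in KO agonist and 14.3 and 14.1 in KO vehicle libraries, and its response difference was -0.18 ± 0.07 (limma adjusted p = 0.0700). Tlr9, which receives CpG, had 5.86 and 6.07 FPKM in ERKO OVX agonist, 7.13 and 7.51 in ERKO OVX vehicle, 12.8 and 12.6 in KO agonist and 16.9 and 16.04 in KO vehicle libraries, and its difference was 0.09 ± 0.06 (limma adjusted p = 0.301). As deposited, all 4 ERKO OVX libraries held more Tlr7 and less Tlr9 than any KO library. Irak3, a brake on Myd88 signalling that agonists induce, differed by -0.71 ± 0.07 (limma adjusted p = 0.000192), with 90.9 and 89.2 FPKM in ERKO OVX agonist, 55.03 and 54.9 in ERKO OVX vehicle, 45.1 and 49.4 in KO agonist and 17.2 and 17.03 in KO vehicle libraries. The ubiquitin ligase gene Traf3 differed by 0.26 ± 0.06, the adaptor gene Myd88 by -0.22 ± 0.06 and the chaperone gene Cnpy3 by -0.19 ± 0.05. The calls for Myd88 and Cnpy3 were lost after rescaling to the same sum (limma adjusted p = 0.160 and 0.148).

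Immediate early factors, which signal within minutes of stimulation, were mixed at 24 h, with 5 of 14 more negative and 2 more positive. Fos differed by 0.68 ± 0.11, at 14.9 and 14.8 FPKM in ERKO OVX agonist, 27.4 and 26.3 in ERKO OVX vehicle, 13.6 and 16.1 in KO agonist and 41.6 and 45.5 in KO vehicle libraries. It fell in both arms and the stimulated groups overlapped. Egr1 differed by 0.65 ± 0.09, Dusp2 by -0.45 ± 0.09 and Jund by -0.43 ± 0.08.

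Type I interferon-stimulated genes differed between the arms in level far more than in response. Of 30, 4 were more negative and 3 more positive, near the shares over all genes, and the split was 2 and 6 after rescaling to the same sum. With vehicle 25 were higher in ERKO OVX and 5 lower, with a median difference of 0.91, and rescaling left 24 higher and 5 lower. Isg15, a ubiquitin-like antiviral modifier, had 496 and 496 FPKM in ERKO OVX agonist, 509 and 499.5 in ERKO OVX vehicle, 156 and 137 in KO agonist and 98.2 and 96.6 in KO vehicle libraries, a difference of -0.61 ± 0.08 (limma adjusted p = 0.000866). Ifit1, which binds viral RNA, differed by -0.49 ± 0.07 and the oligoadenylate synthetase gene Oas2 by 0.28 ± 0.06.

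Antigen presentation genes had small response differences. Of 11 MHC class II genes, 6 were more negative (54.5%) and 1 more positive (9.09%) as deposited, against 3 and 1 after rescaling to the same sum, and 10 were higher with vehicle in ERKO OVX under both scalings, with a median vehicle difference of 1.33 as deposited. H2-Ab1, a class II β chain, had 1199.9 and 1192 FPKM in ERKO OVX agonist, 1379.6 and 1357 in ERKO OVX vehicle, 298 and 296 in KO agonist and 287 and 289.8 in KO vehicle libraries, a difference of -0.24 ± 0.04 (limma adjusted p = 0.00468). Ciita, the class II transactivator, rose in KO and did not pass the test in ERKO OVX, at 19.7 and 19.3 FPKM in ERKO OVX agonist, 20.8 and 20.1 in ERKO OVX vehicle, 29.1 and 29.3 in KO agonist and 20.5 and 20.4 in KO vehicle libraries. Its difference was -0.56 ± 0.05 (limma adjusted p = 8.14e-05). The peptide-exchange genes H2-DMb2 and H2-DMb1 differed by -0.44 ± 0.07 and -0.21 ± 0.05, the second losing its call after rescaling (limma adjusted p = 0.0952). Of 16 class I and immunoproteasome genes, 10 were more negative and 0 more positive as deposited, against 6 and 0 after rescaling. With vehicle 12 were higher in ERKO OVX and 2 lower as deposited, but 7 higher and 8 lower after rescaling. The immunoproteasome subunits Psmb10, Psmb8 and Psmb9 differed by -0.42 ± 0.07, -0.36 ± 0.03 and -0.34 ± 0.05. H2-Q7 had the largest value of its list, -1.53 ± 0.14, but its paired ERKO OVX agonist libraries held 5.30 and 0.0118 FPKM, and without the second of them the difference was -0.21 (limma adjusted p = 0.313). It is one of several near-identical class I genes among which reads can be split unevenly, and it is the 1 gene that fell past 2-fold in ERKO OVX.

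Cell cycle genes had response differences mostly of the opposite sign to those of the inflammatory lists. Their median response was -0.12 in ERKO OVX and -0.44 in KO, so it was likewise smaller in ERKO OVX. The agonists lowered 28 of 30 and raised 2 in KO, and lowered 12 and raised 1 in ERKO OVX. The difference was more positive for 16 (53.3%, against 11.3% of all genes) and more negative for 1 (3.33%, against 12.4%), with a median of 0.28. After rescaling to the same sum it was 19 and 1, where the share over all genes more positive was itself 21.7%. Ccne2, a cyclin of S phase entry, had 2.32 and 2.26 FPKM in ERKO OVX agonist, 2.09 and 2.27 in ERKO OVX vehicle, 1.10 and 0.993 in KO agonist and 2.64 and 2.78 in KO vehicle libraries, a difference of 0.91 ± 0.10 (limma adjusted p = 0.000255). The replication licensing gene Cdc6 differed by 0.80 ± 0.13 and the helicase gene Mcm2 by 0.64 ± 0.11. Tyms, which makes thymidylate, was the 1 member with a more negative value, -0.72 ± 0.07, at 10.6 and 10.9 FPKM in ERKO OVX agonist, 9.95 and 9.75 in ERKO OVX vehicle, 16.3 and 15.96 in KO agonist and 8.92 and 8.26 in KO vehicle libraries. Vehicle levels of this list depended on scaling, with 16 higher and 4 lower in ERKO OVX as deposited and 4 higher and 20 lower after rescaling.

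Metabolic lists had small but frequent differences that depended on scaling. Of 25 oxidative phosphorylation genes, 15 were more negative and 0 more positive as deposited, against 6 and 1 after rescaling, and the median difference was -0.17. All 25 were higher with vehicle in ERKO OVX as deposited and 19 after rescaling. The largest differences were those of the complex III subunits Uqcrfs1 (-0.28 ± 0.05) and Uqcrq (-0.26 ± 0.04), the complex I subunit Ndufa2 (-0.26 ± 0.06) and cytochrome c, Cycs (-0.25 ± 0.05). Ndufa2 lost its call after rescaling (-0.16, limma adjusted p = 0.0736). Of 21 glycolysis and hypoxia genes, 6 were more negative and 2 more positive, and 1 and 2 after rescaling. Among them the hypoxia-induced prolyl hydroxylase Egln3 differed by -0.41 ± 0.10, Gapdh by -0.20 ± 0.05 and the hexokinase gene Hk2 by 0.19 ± 0.06, and each of these 3 lost its call under at least 1 other processing choice. Of 25 sterol and fatty acid synthesis genes, 12 were more negative and 2 more positive, and 10 and 2 after rescaling. Idi1, an isomerase of the mevalonate pathway, rose in KO and did not pass the test in ERKO OVX, at 9.27 and 10.5 FPKM in ERKO OVX agonist, 9.86 and 9.26 in ERKO OVX vehicle, 41.4 and 40.5 in KO agonist and 24.1 and 22.3 in KO vehicle libraries, and the difference itself was -0.75 ± 0.07 (limma adjusted p = 7.29e-05). Scd1, a fatty acid desaturase, moved the other way with a difference of 0.75 ± 0.06, at 6.95 and 6.49 FPKM in ERKO OVX agonist, 9.94 and 9.75 in ERKO OVX vehicle, 17.2 and 17.8 in KO agonist and 43.2 and 42.02 in KO vehicle libraries. The farnesyl diphosphate synthase gene Fdps and the demethylase gene Cyp51 differed by -0.52 ± 0.05 and -0.42 ± 0.06.

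**Figure D4:**
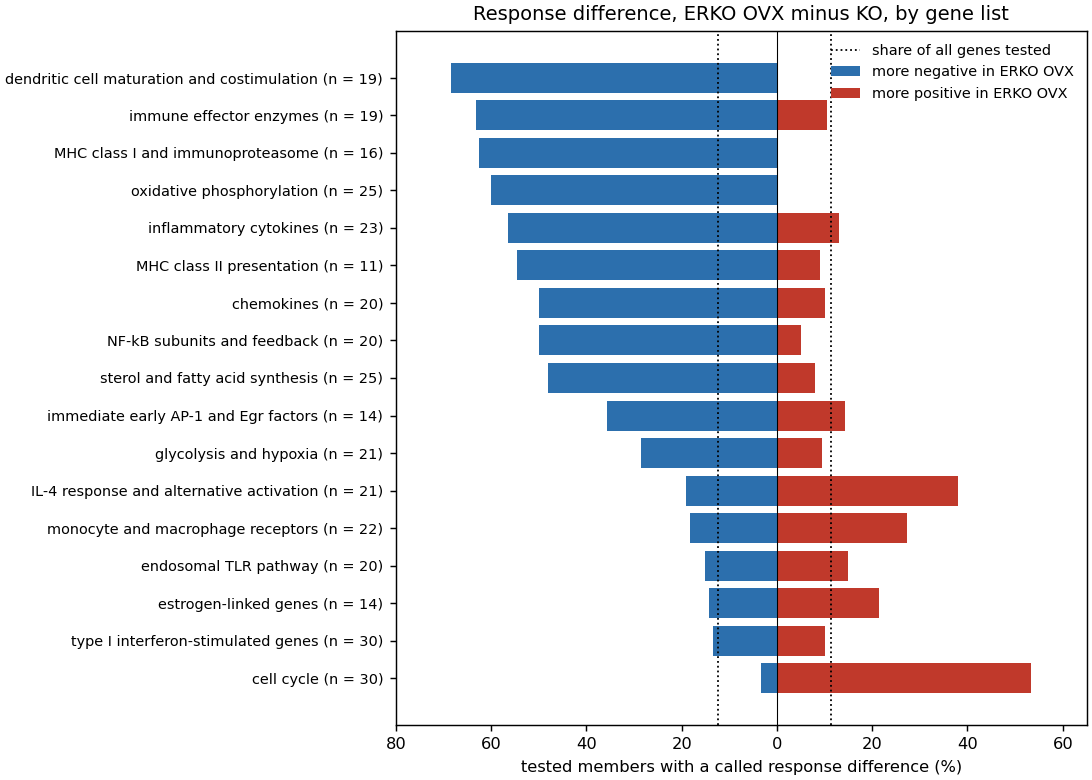
Share of the tested members of 17 gene lists whose response difference was called more negative (bars to the left) or more positive (bars to the right) in ERKO OVX than in KO, with dotted lines at the shares over all genes tested, 12.4% and 11.3%. Maturation genes lead the left side with 13 of 19 members and cell cycle genes the right side with 16 of 30.

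Estrogen-linked genes were called in both directions, in a small list. Of 14 tested, 3 were more positive (21.4%, against 11.3% of all genes) and 2 more negative (14.3%, against 12.4%) as deposited. After rescaling to the same sum 5 were more positive and 1 more negative, where 21.7% and 6.89% of all genes were. Vegfa, a growth factor for blood vessels, had 1.06 and 1.23 FPKM in ERKO OVX agonist, 1.22 and 1.54 in ERKO OVX vehicle, 4.94 and 5.48 in KO agonist and 12.7 and 13.5 in KO vehicle libraries, a difference of 1.04 ± 0.09 (limma adjusted p = 5.82e-05). Ccnd1, which encodes cyclin D1, had 1.90 and 1.74 FPKM in ERKO OVX agonist, 2.81 and 2.71 in ERKO OVX vehicle, 2.35 and 2.41 in KO agonist and 8.29 and 7.73 in KO vehicle libraries, a difference of 1.00 ± 0.08 (limma adjusted p = 5.82e-05). Both genes were lower with vehicle in ERKO OVX, where Vegfa did not pass the test for a response and Ccnd1 fell by less than in KO. Myc differed by 0.61 ± 0.07 and Irf4, a factor of dendritic cell and B cell differentiation, by -0.46 ± 0.05. Esr1 itself, the gene of ERα, was low: 1.12 and 1.16 FPKM in ERKO OVX agonist, 1.02 and 0.982 in ERKO OVX vehicle, 2.01 and 1.77 in KO agonist and 2.47 and 2.57 in KO vehicle libraries. Its response difference was 0.38 ± 0.13 (limma adjusted p = 0.0690). A gene-level FPKM does not tell which allele a library carries.

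Genes of the IL-4 response and monocyte receptors were called in both directions. Of 21 IL-4 response genes, 8 were more positive (38.1%) and 4 more negative (19.0%) as deposited, against 10 and 4 after rescaling. The factor Klf4 differed by 0.60 ± 0.10 and the inhibitor Socs2 by -0.51 ± 0.05, with 23.7 and 25.8 FPKM in ERKO OVX agonist, 28.5 and 27.3 in ERKO OVX vehicle, 88.95 and 86.9 in KO agonist and 68.7 and 69.6 in KO vehicle libraries. Of 22 monocyte and macrophage receptors, 6 were more positive (27.3%) and 4 more negative (18.2%) as deposited, against 11 and 4 after rescaling, with 16 higher and 4 lower with vehicle in ERKO OVX as deposited. Marco and Ccr2, given above, are the extremes of this list. Clec4e, a lectin receptor for mycobacterial lipid, had 959 and 966 FPKM in ERKO OVX agonist, 543 and 547 in ERKO OVX vehicle, 275 and 256 in KO agonist and 107 and 96.9 in KO vehicle libraries, a difference of -0.56 ± 0.09 (limma adjusted p = 0.00257). Cx3cr1, the fractalkine receptor, differed by -0.73 ± 0.15 (limma adjusted p = 0.00863).

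Markers of other cell types moved with the arm and are given here because they bear on every level compared between arms. In bulk RNA, fewer cells of a type and less RNA per cell cannot be told apart. Summed over the 9 granulocyte markers in the table, levels were 2384 to 2413 FPKM in ERKO OVX and 111 to 246 in KO, with Lcn2 itself among them. S100a8 alone was at 816 to 926 FPKM in ERKO OVX and 71.7 to 81.6 in KO, and Elane was at 0 in all 4 KO libraries. The 5 mast cell and basophil markers summed to 76.0 and 79.7 FPKM in ERKO OVX agonist and 106 and 108 in ERKO OVX vehicle libraries, and to at most 0.257 in KO. The 7 macrophage markers summed to 1140 to 1301 FPKM in ERKO OVX and 415 to 562 in KO, a sum carried by Cd68 and Csf1r. Of its other members Mertk was higher in ERKO OVX, at 7.1 to 9.4 FPKM against 3.5 to 4.1 in KO. Fcgr1 was higher too, at 14.4 to 26.6 FPKM in ERKO OVX against 3.0 to 7.6 in KO. C1qb was lower in ERKO OVX, at 7.99 to 11.8 FPKM against 12.5 to 20.2 in KO, and C1qa and C1qc overlapped between the arms. The 5 B cell markers summed to 3.44 to 5.09 in ERKO OVX and 0.253 to 0.359 in KO. The 5 T and NK cell markers summed to 1.89 to 3.14 FPKM in ERKO OVX and 0.0852 to 0.410 in KO. Among the dendritic markers Itgax, the gene of CD11c, was at 145 to 155 FPKM in ERKO OVX and 97.7 to 115 in KO. H2-Ab1 and Cd74 were also higher in ERKO OVX. The lineage factor Zbtb46 was at 4.15 to 4.69 FPKM in ERKO OVX and 21.4 to 27.8 in KO. The migration receptor Ccr7 was at 471 to 508 in ERKO OVX and 1724 to 2205 in KO. Flt3 was at 1.31 to 1.60 FPKM in ERKO OVX and 2.43 to 4.01 in KO. Batf3 was at 22.3 to 32.2 FPKM in ERKO OVX and 67.8 to 72.8 in KO. The part of these other cell types in the vehicle levels and in the response differences was not tested.

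**Figure D5:**
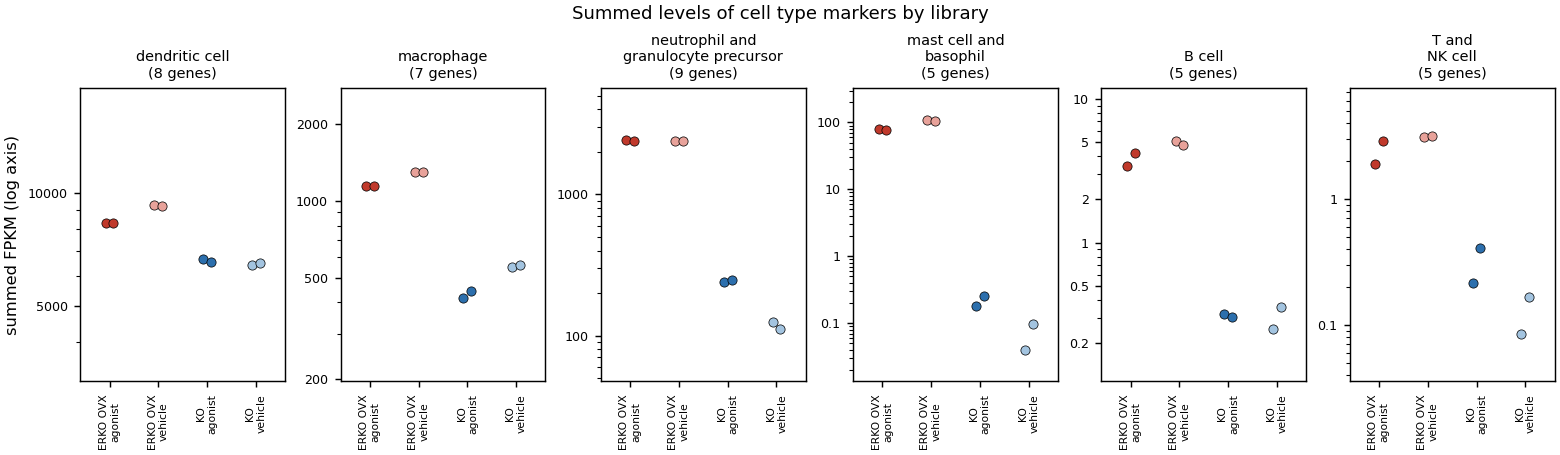
Summed FPKM of cell type markers on log axes in each of the 8 libraries, with ERKO OVX groups left of KO groups; 1 panel per cell type, with the number of marker genes in the table above it. Granulocyte, mast cell and basophil, B cell and T and NK cell markers were higher in all 4 ERKO OVX libraries than in any KO library.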

How the data were processed

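RNA-seq of bone marrow-derived dendritic cells was analysed from a table of FPKM per gene that the authors deposited, with 24001 gene rows and 16 libraries. Per the submitters' processing notes, cutadapt, FastQC, STAR, HTSeq, DESeq2 and the mm10 build were used; versions and roles are not given in the sources used here.

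Of the rows, 5724 were 0 everywhere and 1237 small RNA rows were left out, a choice made after values were seen. A listed 0 was set to missing where at least 12 other libraries were above 0 and all of those were at 5 FPKM or more, which removed 6 values. Genes at 1 FPKM or more in at least 2 libraries were tested, 11347 in all. Sequencing depth was inferred from how low FPKM values step in 3429 single-transcript genes, of which 71.0% to 77.0% per library came within 0.1 of a whole fragment. Because ovariectomized pairs differed by about sampling noise, the mean of each pair entered as 1 sample; 12 samples remained, with 4 residual degrees of freedom supplied by the unoperated groups alone. The fit in limma 3.58.1 (R 4.3.3) used log2(FPKM + 1), 1 coefficient per group and a trended and robust prior. Benjamini-Hochberg adjustment ran over all genes tested, with calls at 0.05. The fit was tested on simulated data with spread drawn from the unoperated libraries, which cannot check the spread within ovariectomized groups. A fold change on log2(FPKM + 1) understates changes of low genes. Outside the contrast, WT libraries served to estimate the spread and to choose genes. Ex3a OVX pairs, each entered as 1 sample, added no residual degrees of freedom.

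Named genes were the 12 most negative and 12 most positive called differences with both libraries of a group at 5 FPKM or more, the same sign in all 16 choices of 1 library per group and no predicted or clone name; the 6 largest opposite responses; up to 4 called members of each of 17 gene lists by size; and Esr1. Some genes that the rule names are not reported here. Members and lists were chosen with earlier results of these data known. Alternatives covered the pseudocount, the filter, scaling, the libraries entered, the prior, a replicate block and leaving out each library. Figures were drawn in matplotlib 3.10.9 (Python 3.11.15), and promoter sequences came from RefSeq on GRCm38.p6.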

Additional observations from a re-analysis of the deposited data

Results flagged for a closer look

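For each gene given here the agonist response differed between ERKO OVX and KO in the limma test of the difference itself, on the log2(FPKM + 1) scale. Genes with a more negative response in ERKO OVX come first. The difference was -3.15 for Saa3, -2.73 for Lcn2, -2.59 for Ptgs2, -2.32 for Il12b, -2.27 for Nppc, -2.08 for Lox, -1.98 for U90926, -1.96 for Il1b and -1.94 for Ccl3. It came to -1.90 for Marco, -1.87 for Il23a, -1.83 for Ccl4, -1.75 for Ptx3, -1.75 for Cd70, -1.71 for Tnf, -1.57 for Cxcl1, -1.53 for H2-Q7 and -1.49 for Nos2. Values further on were -1.46 for Socs3, -1.45 for Cxcl5, -1.42 for Rnase6, -1.33 for Ccl17, -1.27 for Nfkbiz, -1.02 for Fscn1, -0.90 for Cd40, -0.86 for Cd80 and -0.84 for Igsf9. Next came -0.83 for Tnfsf4, -0.75 for Idi1, -0.73 for Cx3cr1, -0.72 for Tyms, -0.71 for Irak3, -0.61 for Isg15, -0.56 for Ciita, -0.56 for Clec4e and -0.52 for Fdps. The difference reached -0.51 for Socs2, -0.49 for Ifit1, -0.46 for Irf4, -0.45 for Dusp2, -0.44 for H2-DMb2, -0.43 for Jund, -0.42 for Psmb10, -0.42 for Cyp51 and -0.41 for Egln3. Smaller values were -0.39 for Zc3h12a, -0.36 for Psmb8, -0.35 for Tnfaip3, -0.34 for Psmb9, -0.28 for Uqcrfs1, -0.26 for Ndufa2, -0.26 for Uqcrq, -0.25 for Cycs and -0.24 for H2-Ab1. These were followed by -0.22 for Myd88, -0.21 for H2-DMb1, -0.20 for Gapdh and -0.19 for Cnpy3. The call of H2-Q7 rests on 1 library and those of Tnf and Cxcl1 are lost when single libraries are left out, as given above. The calls of Ndufa2, Myd88, Cnpy3, H2-DMb1 and Gapdh are lost after rescaling to the same sum.

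The other genes had a more positive response in ERKO OVX. The difference was 1.27 for Ceacam15, 1.26 for Mmp19, 1.26 for Rnaset2a, 1.22 for Ccr2, 1.14 for Psca, 1.06 for Gda, 1.04 for Vegfa and 1.04 for Nefl. It came to 1.02 for Gadd45g, 1.00 for Ccnd1, 0.96 for Sesn3, 0.91 for Ccne2, 0.80 for Cdc6, 0.75 for Scd1, 0.68 for Fos, 0.65 for Egr1 and 0.64 for Mcm2. Values further on were 0.61 for Myc, 0.60 for Klf4, 0.28 for Oas2, 0.26 for Traf3 and 0.19 for Hk2. Psca and Nefl were below 1 FPKM in all 4 ERKO OVX libraries.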

How the results depend on the processing

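Summaries over all genes and over the WT-chosen genes stayed within their tolerance in 511 recomputations and moved in 25. The tolerance for counts and shares was a wide 1.5-fold, so 2001 more negative genes against 1409 still counted as within it. Leaving out an Ex3a OVX library gave 1408 or 1409, since those groups supply no residual degrees of freedom. Such settings could hardly move a summary and add to the 511. Of counts within gene lists 854 stayed and 64 moved, and of other summaries 126 stayed and 30 moved. No named gene's response difference changed sign, while 37 recomputations lost a call and 5, all of Esr1, gained one. The ranked and opposite-response genes were chosen for the same sign in all 16 choices of 1 library per group. Leaving out a library could therefore not turn their sign. Rescaling to the same sum turned round the split of called genes, the vehicle direction of Zc3h12a and Tnfaip3 and the sign of list medians: the response difference of interferon-stimulated genes (-0.04 as deposited, 0.05 rescaled) and of glycolysis and hypoxia genes (-0.07 and 0.02), and the vehicle difference of MHC class I genes (0.25 and -0.16), cell cycle genes (0.17 and -0.21) and endosomal TLR pathway genes (0.12 and -0.29). With each library rescaled to the same sum, 782 genes were more negative and 2464 more positive (33 past 2-fold), 3237 rose and 1355 fell in ERKO OVX, 2432 were higher and 6737 lower after agonists, 2140 were higher and 7328 lower with vehicle, and there were 573 smaller rises and 1471 smaller falls; the median of all genes then moved by over 0.1, to -0.36 for the vehicle level. A pseudocount of 0.1 gave 112 more negative and 68 more positive genes past 2-fold and a more positive difference in 53.2% of falling WT genes, and a pseudocount of 5 gave 28 and 2. A filter of 5 FPKM gave 11 more positive genes past 2-fold. With all 16 libraries as replicates there were 322 larger and 419 opposite responses, and with only the 4 groups in the fit 94 larger ones. The cause was not tested. A replicate block over 12 samples gave 1298 more negative and 1128 more positive genes, 2349 of the 2695 called without it, and with all 16 libraries 299 larger and 413 opposite responses; same-numbered libraries shared only a number, with deviations correlating at 0.01 in ERKO OVX and -0.03 in KO. Leaving out 1 library gave 1163 to 1515 more negative genes (53 to 58 past 2-fold) and 922 to 1375 more positive (14 to 21 past 2-fold). It gave 1932 to 2198 rises and 2045 to 2279 falls in ERKO OVX, and 2338 to 2941 rises and 2417 to 2875 falls in KO. After agonists 4288 to 4584 were higher and 4182 to 4379 lower, and with vehicle 4436 to 4642 higher and 4342 to 4547 lower. Larger responses numbered 73 to 177, opposite ones 180 to 278, smaller falls 675 to 945 and smaller rises 741 to 945. Among WT falls 73.3% to 84.4% were more positive and 63% to 70% lower with vehicle, and among WT rises 81.5% to 84.8% were more negative and 72.9% to 74.7% higher with vehicle. Depth in ERKO OVX was the lower of the arms, so genes near 1 FPKM are the least precise there.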
